A study of Mus musculus with 54 samples.

Results

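The neuronal intermediate filament genes are 5 of the 16772 genes in the expression table: Nefl, Nefm and Nefh, which encode the light, medium and heavy neurofilament chains, Ina, which encodes alpha-internexin, and Prph, which encodes peripherin. They were chosen by the measured level of Nefl, which gave no reads in most castrated DKO tumours. The values of castrated DKO are therefore given as a description with no test. They still entered the pooled spread of the fits that held this group. Neurofilaments are the intermediate filaments of axons. The light chain forms the core of the filament, the medium and heavy chains add long tails that extend from it, and alpha-internexin assembles with all of them. Peripherin is best known from peripheral neurons, such as the autonomic and sensory neurons that innervate the prostate, and neuroendocrine carcinomas can switch on neuronal filament genes of their own.

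RNA was sequenced from bulk prostate tumour tissue of genetically engineered mice. DKO and TKO are engineered tumour models, and DKO_EE and DKO_EP are DKO mice that also carry Ezh2 deletions. The labels do not say which genes are deleted in DKO and TKO, which promoter drives the deletion, or what EE and EP stand for. Intact mice were sampled at 12 weeks (4 DKO, 4 DKO_EE and 4 DKO_EP animals) and at endstage (3 DKO animals at 35 to 46 weeks, 8 DKO_EE at 28 to 42 weeks and 3 DKO_EP at 39 to 52 weeks). Mice castrated at 12 weeks of age were sampled at endstage (4 DKO at 39 to 99 weeks, 5 DKO_EE at 35 to 59 weeks and 5 DKO_EP at 34 to 37 weeks). Castrated TKO mice were given vehicle (4 animals, 15 to 19 weeks) or CPI1688, an inhibitor of Ezh2 (4 animals, 18 to 19 weeks). The SKO model of the series was not analysed here. In all, 48 animals gave 54 libraries, since 6 intact endstage animals were sampled as 2 pieces. Libraries that share an identifier and an age were taken as pieces of 1 animal, and their log2 values were averaged.

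On the mouse genome build GRCm38, Nefl lies on chromosome 14 from 68083863 to 68089095 on the plus strand, and Nefm lies on chromosome 14 from 68082590 to 68124846 on the minus strand. Their annotated exons share 1108 bases on opposite strands, of 3380 exon bases in Nefl and 5782 in Nefm. The sources do not say whether reads were counted by strand, so reads from those bases cannot be assigned with certainty to either gene. Nefh lies on chromosome 11 from 4938754 to 4948064 on the minus strand. Ina lies on chromosome 19 from 47014698 to 47025327 on the plus strand and shares 456 of its 3240 exon bases with Nt5c2. Prph lies on chromosome 15 from 99055174 to 99058978 on the plus strand. All 5 genes are annotated as protein-coding.

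The 250 bases before the RefSeq start sites of Ina and Prph (build GRCm38.p6) are shown because Ina rose from 12 weeks to endstage in all 3 genotypes while Prph passed the test in none, and the reference table used held these 2 of the 5 members. Capitals mark CG dinucleotides and the letters TATAAA, which were searched on both strands.
Ina, chr19:47014431-47014680, plus strand: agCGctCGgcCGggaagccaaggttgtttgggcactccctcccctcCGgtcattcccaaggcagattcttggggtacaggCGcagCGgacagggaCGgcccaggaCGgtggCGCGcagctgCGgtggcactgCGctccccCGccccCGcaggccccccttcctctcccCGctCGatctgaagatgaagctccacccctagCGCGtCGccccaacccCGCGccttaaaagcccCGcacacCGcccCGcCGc
Prph, chr15:99054924-99055173, plus strand: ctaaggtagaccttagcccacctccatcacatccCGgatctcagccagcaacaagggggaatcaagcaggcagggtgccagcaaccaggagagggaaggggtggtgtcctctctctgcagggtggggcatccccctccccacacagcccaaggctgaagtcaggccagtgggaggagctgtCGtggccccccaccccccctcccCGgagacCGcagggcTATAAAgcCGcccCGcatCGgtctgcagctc
The Ina window held 25 CG dinucleotides with a GC content of 70.8%, and 9.59% of 32851 windows of the same length had more. The Prph window held 7, against a median of 6 over those windows, with a GC content of 65.2%. TATAAA occurred in the Prph window at position -31 from the start and not in the Ina window, and 12.4% of all windows held it on either strand. These matches describe the letters and say nothing of which factor binds there.

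The deposited values are log2 of a normalized count plus 1, and every level and difference below is on that scale unless it is given per length. Between 3687048 and 9741808 reads per library fell on the genes listed. Keratin 8 (Krt8) and Epcam, which mark prostate epithelium, were present in all 48 animals, and Ezh2, the gene targeted in DKO_EE and DKO_EP, ranged from 7.33 to 10.20 and was at 0 in no animal. The prostate secretory gene Pbsn was at 0 in every endstage intact and castrated animal. The mitochondrial leucyl-tRNA synthetase gene Lars2 took 14.2% to 21.6% of the reads in every intact endstage DKO_EP library and up to 35.3% in intact endstage DKO_EE, and at most 0.0258% in intact endstage DKO. The muscle gene Ttn took up to 2.55% of the reads in 12-week DKO libraries and up to 2.53% in 12-week DKO_EP libraries. In 2 castrated animals the neuroendocrine genes stood low: the 99-week DKO animal had Chga at 3.59, and TKO vehicle animal 1 had Chga at 6.06. The labels do not describe each replicate beyond its identifier, genotype, treatment and age, so p-values measure the spread between these animals. That spread is pooled over every group in a fit, also groups that are not compared. In bulk tissue, fewer cells of a type and less RNA per cell cannot be told apart.

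Castrated DKO tumours had few or no reads of Nefl and Nefm, while 3 of the 4 had Nefh within the range of intact endstage DKO and Ina above it. Nefl stood at 0, 0, 0 and 3.84 in animals 1 to 4, from 0, 0, 0 and 12 reads, in libraries of 5024409 to 6336499 reads. A count of 0 allows up to 3 reads. Nefm stood at 1.81, 0, 0 and 1.08, from 2 reads, none, none and 1 read. The only castrated DKO animal with Nefl reads above that limit was animal 4, sampled at 50 weeks, and it was not the animal with the most Nefm. Nefh stood at 8.05, 3.88, 7.61 and 8.53, and Ina at 9.54, 2.36, 9.90 and 9.82. The low Nefh and Ina values came from the same animal, the 99-week animal in which neuroendocrine genes were low and in which Rest, the repressor of neuronal genes, stood at 10.27. In animals 1, 3 and 4, Chga stood at 10.14, 10.51 and 10.48, and Nefl at 0, 0 and 3.84. Elavl4, a neuronal RNA-binding protein gene, stood at 9.28, 9.01 and 9.44 in them. The part of neuroendocrine cells in the Nefl values was not tested. Prph stood at 3.09, 3.41, 5.80 and 4.23.

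Against intact DKO tumours, whose Nefl values were 12.34, 9.52 and 12.35, the castrated mean was lower by a log2 difference of -10.44, and the groups did not overlap. The corresponding differences were -6.92 for Nefm, -1.11 for Nefh, -0.01 for Ina and -0.62 for Prph. Without the 99-week animal they were -6.68 for Nefm, -0.07 for Nefh and 1.84 for Ina. The light and medium chains did not overlap between castrated and intact DKO. Nefh and Prph overlapped, and Ina did so through the 99-week animal alone: the other 3 castrated animals lay above the intact values of 7.50, 8.14 and 8.09, opposite to Nefl. These differences use the samples on which the genes were chosen and carry no test. Castrated DKO libraries alone have the identifier letters DKO. Intact endstage DKO has ET or DKOE, and castrated DKO_EE and DKO_EP have DKOE. Identifier letters and group therefore cannot be told apart in any contrast with castrated DKO.

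The other castrated groups were set against castrated DKO in the same descriptive way. In DKO_EE the heavy chain lay above castrated DKO without overlap, with a mean log2 difference of 2.53 for Nefh, and 1.48 without the 99-week animal. Ina differed by 1.17 and, without that animal, by -0.68, so its sign rested on that animal. In DKO_EP the differences from castrated DKO were 5.51 for Nefl, 2.78 for Nefm, 1.73 for Nefh and 1.49 for Ina, and the groups overlapped for every member. Without the 99-week animal Nefh differed by 0.68 and Ina by -0.36. TKO with vehicle differed from castrated DKO by 6.93 for Nefl and 5.05 for Nefm, again with overlap.

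**Figure D1:**
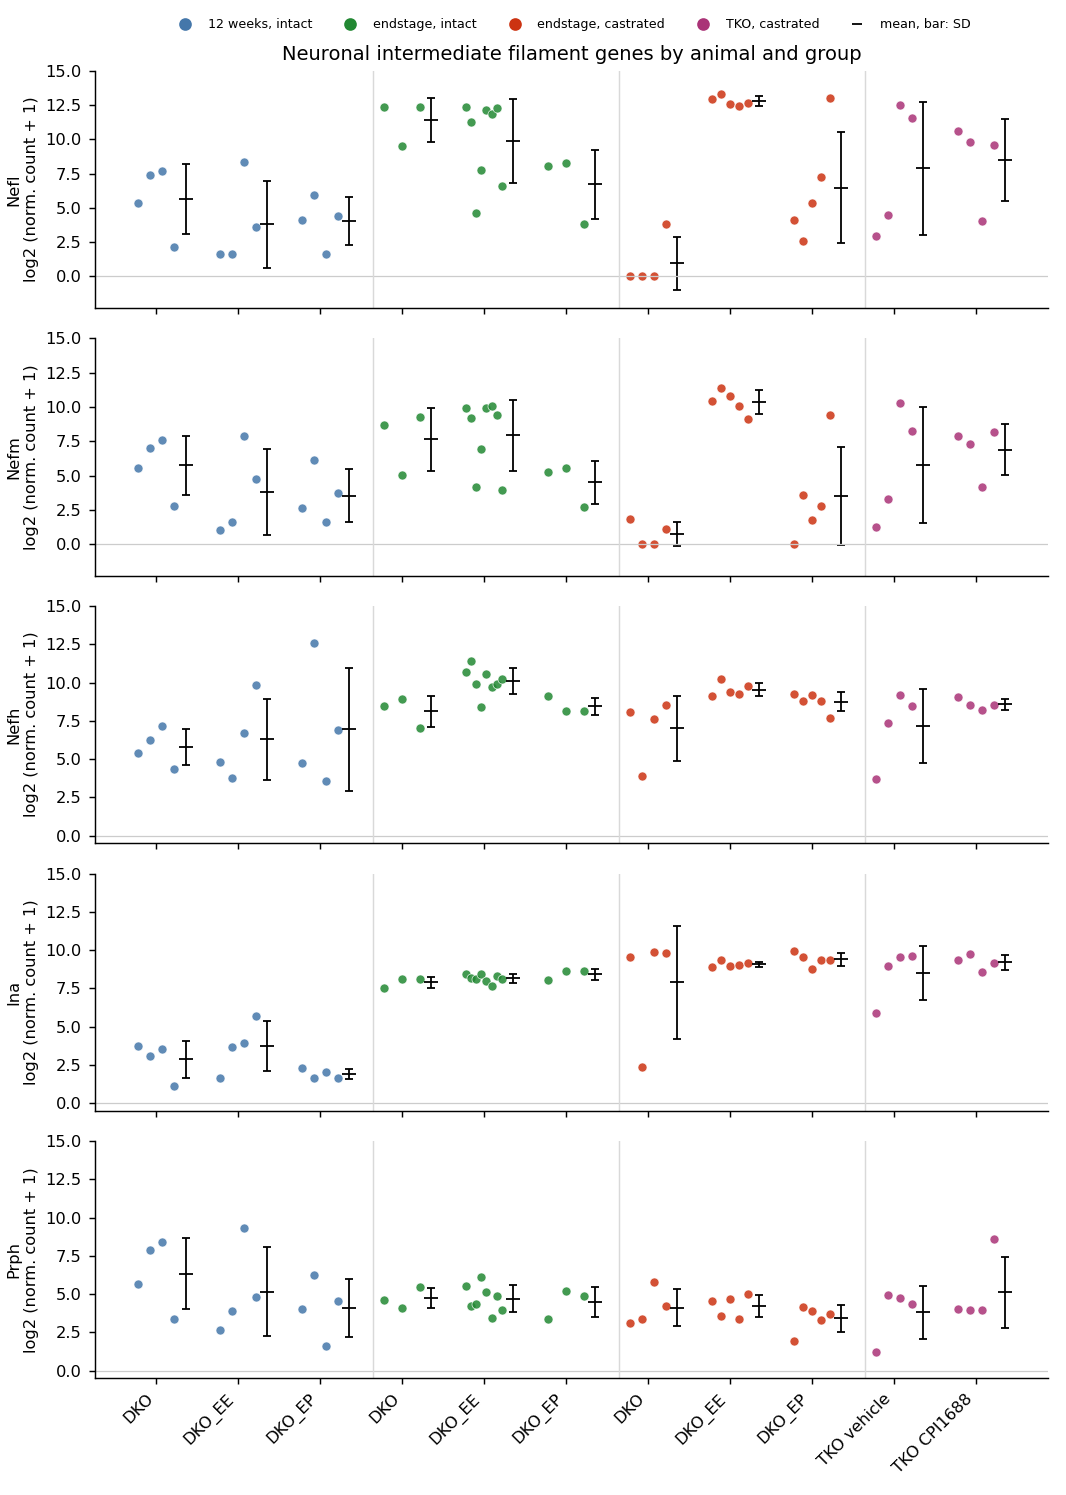
Log2 of the normalized count plus 1 (vertical axis) for each gene, with 1 point per animal and 1 column per group; the black mark is the mean and the bar 1 SD. Nefl and Nefm spread over the whole range at endstage and are at or near 0 in castrated DKO, whereas Ina sits between 7.50 and 8.65 in all intact endstage animals.

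Across the 11 groups Nefl was highest in castrated DKO_EE, at 12.80 ± 0.36 (SD, n = 5), followed by intact endstage DKO at 11.40 ± 1.63 (SD, n = 3) and intact endstage DKO_EE at 9.86 ± 3.06 (SD, n = 8). It then stood at 8.50 ± 3.0 in TKO with CPI1688 (SD, n = 4), 7.89 ± 4.86 in TKO with vehicle (SD, n = 4), 6.71 ± 2.50 in intact endstage DKO_EP (SD, n = 3) and 6.47 ± 4.05 in castrated DKO_EP (SD, n = 5). The 12-week groups followed at 5.66 ± 2.55 in DKO, 4.03 ± 1.77 in DKO_EP and 3.80 ± 3.17 in DKO_EE (SD, n = 4 each), and castrated DKO was last at 0.96 ± 1.92 (SD, n = 4). Of the 10 neighbouring pairs in this order, 9 overlapped in their animals. The exception was castrated DKO_EE over intact endstage DKO. For each of the other 4 genes all 10 neighbouring pairs overlapped.

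Nefm was also highest in castrated DKO_EE, at 10.37 ± 0.85 (SD, n = 5), and lowest in castrated DKO, at 0.72 ± 0.89 (SD, n = 4). Nefh was highest in intact endstage DKO_EE, at 10.09 ± 0.87 (SD, n = 8), and lowest in 12-week DKO, at 5.78 ± 1.19 (SD, n = 4). Ina was highest in castrated DKO_EP, at 9.39 ± 0.41 (SD, n = 5), and lowest in 12-week DKO_EP, at 1.90 ± 0.33 (SD, n = 4). Prph ran another way, from 6.35 ± 2.32 in 12-week DKO (SD, n = 4) down to 3.41 ± 0.89 in castrated DKO_EP (SD, n = 5).

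Set against exon length, the gene with the highest median differed between groups. In 12-week DKO the median normalized count per kb of exon was 72.3 for Prph, 30.7 for Nefl, 15.1 for Nefm, 14.2 for Nefh and 2.76 for Ina. In castrated DKO_EE the median per kb was 1917 for Nefl, 244 for Nefm, 164 for Nefh, 158 for Ina and 11.1 for Prph. In castrated DKO_EP it was 201.0 for Ina, 111 for Nefh, 11.7 for Nefl, 6.15 for Prph and 0.993 for Nefm. In the other 12-week groups Nefh led, with medians of 16.0 per kb in DKO_EE and 18.0 in DKO_EP, against 10.2 and 9.52 for Prph. Peripherin thus led in the 12-week DKO gland, the light chain in castrated DKO_EE tumours and alpha-internexin in castrated DKO_EP tumours, by medians over 4, 5 and 5 animals. In 12-week DKO, Prph was lowest in animal 4, the only animal of that group with the identifier letters of the other 12-week groups.

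At 12 weeks the light and medium chains and peripherin were high in the same animals and low in the same animals. In DKO, Nefl stood at 5.36, 7.39, 7.72 and 2.17, and Prph at 5.68, 7.91, 8.43 and 3.37. Animals 1 to 3 of this group have the identifier letters T, and animal 4 has DKOE, as do all 12-week DKO_EE and DKO_EP animals. The part of the identifier letters in these values was not tested. In DKO_EE, Nefl stood at 1.63, 1.64, 8.36 and 3.58, and Prph at 2.64, 3.89, 9.36 and 4.80. In DKO_EP, Nefl stood at 4.14, 5.91, 1.64 and 4.43, and Prph at 4.03, 6.25, 1.64 and 4.57. The highest animal of each genotype for Nefl was also the highest for Prph and for Nefm, which stood at 7.62, 7.87 and 6.10 in those 3 animals. No member passed the test between genotypes at this age: 0 of 5 passed in each of the 3 comparisons, where 0% of 16626 genes passed by limma. At an unadjusted p under 0.05, 796 genes differed between DKO_EE and DKO, 449 between DKO_EP and DKO and 593 between DKO_EE and DKO_EP, and limma-voom on the recovered reads also called 0 of 5 members in each. Against DKO the DKO_EE log2 fold change was -1.86 for Nefl (SE 1.61, 95% interval -5.37 to 1.65, adjusted p = 0.975) and -1.92 for Nefm (SE 1.55, adjusted p = 0.975). Ina was higher in DKO_EE than in DKO_EP by 1.83 (SE 0.79), with an unadjusted p of 0.0391 by limma and an adjusted p of 1.

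Markers of autonomic neurons moved with these 3 genes at 12 weeks. Over the 12 animals Pearson's r with Nefl was 0.91 for Th and 0.93 for Dbh, which encode enzymes of noradrenaline synthesis, and 0.98 for Chrna3, which encodes a ganglionic acetylcholine receptor subunit. Spearman's rho was 0.90, 0.92 and 0.95, and r without the 2 animals farthest from the median of Nefl was 0.90, 0.92 and 0.97. Prph gave an r of 0.91 with Dbh and 0.96 with Nefl. The secretory granule gene Chga, a neuroendocrine marker, gave an r of 0.10 with Nefl, and Ina gave 0.31. The points share libraries of 12-week tissue, 4 from each genotype, and these values are descriptions. Of the 24 peripheral neuron markers listed, 21 were in the table, 12 of them were above 0 in every 12-week animal, and their summed level ranged from 9.55 to 11.79. The part of nerve tissue in the 12-week values was not tested.

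**Figure D2:**
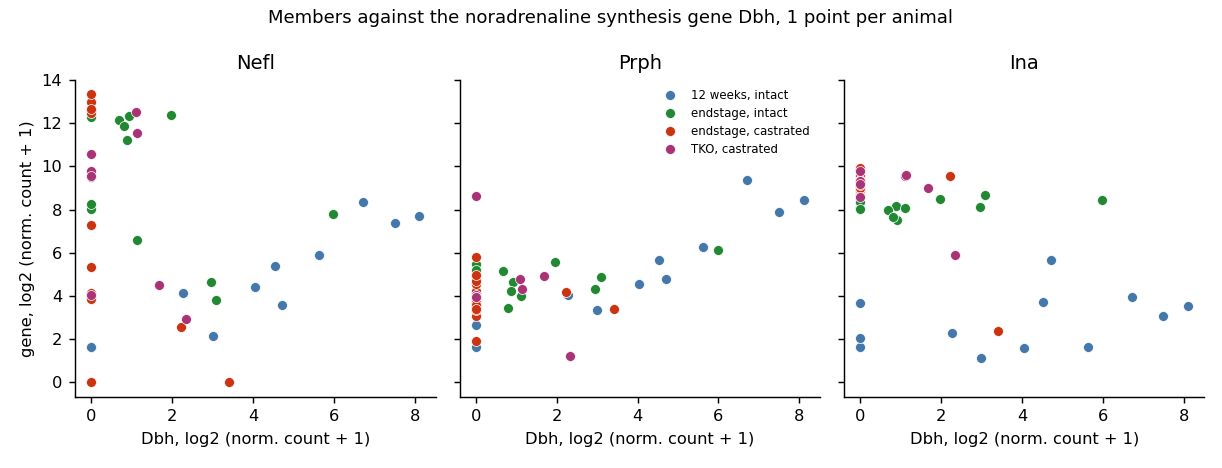
Nefl, Prph and Ina (vertical axes) against Dbh (horizontal axis), all as log2 of the normalized count plus 1, with 1 point per animal coloured by setting. The 12-week animals lie along a rising line for Nefl and Prph (r = 0.93 and 0.91), while the endstage and TKO animals, most of them with Dbh at or near 0, cover the whole range of Nefl.

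At endstage the values differed. Over the 36 endstage and TKO animals Nefl gave an r of 0.02 with Th (rho -0.02), -0.30 with Dbh (rho -0.28) and 0.35 with Chrna3 (rho 0.33), and r without the 2 farthest animals was -0.02, -0.28 and 0.26. Th was at 0 in every castrated endstage animal. Nefl kept its relation with Nefm, with an r of 0.94 and rho of 0.94 over the 36 animals, and had an r of 0.20 and rho of -0.03 with Ina. Exon bases shared by Nefl and Nefm can raise the values of that pair. The highest Th and Dbh of the 36 animals, 3.99 and 5.99, were those of intact DKO_EE animal 4, whose Nefl stood at 7.79. The summed level of the peripheral neuron list ranged from 11.68 to 12.78 at intact endstage. From 12 weeks more of its 21 genes fell than rose: 11 against 4 in DKO, 5 against 4 in DKO_EE and 6 against 4 in DKO_EP. Of all genes 36.7%, 50.6% and 44.2% passed in either direction. Among the risers were Elavl3, Elavl4 and Scn9a, which other neurons also express and which rose in all 3 genotypes. Elavl4 rose by 4.63, 4.01 and 6.73 (limma adjusted p = 0.00199, 0.000596 and 2.26e-05).

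Nefh had a different exception at 12 weeks. It stood at 4.73, 12.58, 3.54 and 6.90 in DKO_EP, and at 4.82, 3.78, 6.67 and 9.87 in DKO_EE. DKO_EP animal 2, with 5783 Nefh reads, had the highest Nefh of all 48 animals, while its Nefl was 5.91, its Ina 1.64 and its Chga 4.60. Its Ttn stood at 17.60 and its Unc79 at 9.24. Ttn of 17.66 and 17.69 stood beside Nefh of 5.36 and 6.90 in 12-week DKO animal 1 and DKO_EP animal 4. The part of muscle in these values was not tested. DKO_EE animal 4, with Nefh at 9.87, also had Chga at 8.06, the highest of the 12-week animals. These animals ranked first and second of the 12 for Nefh, and neither was the highest for Nefl.

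From 12 weeks to intact endstage Ina rose in all 3 genotypes, Nefl in DKO and DKO_EE, and Nefm and Nefh in DKO_EE, by the test. In DKO, Ina went from 3.71, 3.06, 3.53 and 1.11 to 7.50, 8.14 and 8.09, without overlap. Its log2 fold change was 5.06 (SE 0.98, limma adjusted p = 0.000112). In DKO_EE, Ina went from 1.63, 3.67, 3.95 and 5.68 to a lowest value of 7.64, a median of 8.15 and a highest of 8.46, a log2 fold change of 4.42 (SE 0.79, limma adjusted p = 1.9e-05). In DKO_EP, Ina went from 2.28, 1.64, 2.06 and 1.61 to 8.02, 8.61 and 8.65, a log2 fold change of 6.53 (SE 0.98, limma adjusted p = 2.86e-06). The groups did not overlap in any genotype, and the 14 intact endstage animals lay within 7.50 to 8.65. How many of all genes separate in this way was not counted. Ina kept the call in every alternative run.

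Nefl rose in DKO and DKO_EE. In DKO the 12-week values of 5.36, 7.39, 7.72 and 2.17 stood below the endstage values of 12.34, 9.52 and 12.35, a log2 fold change of 5.74 (SE 2.15, limma adjusted p = 0.0335). That call was lost without intact endstage animal 1 (adjusted p = 0.101) or 3 (0.106), without 12-week animal 1 (0.059) or 4 (0.118), with limma-voom on the recovered reads (0.0881), and with only the libraries in which Ttn took under 1% of the reads (log2 fold change 3.85, adjusted p = 0.285). In DKO_EE, Nefl went from 1.63, 1.64, 8.36 and 3.58 to a lowest value of 4.63, a median of 11.54 and a highest of 12.36, with overlap between the groups. Its log2 fold change was 6.05 (SE 1.73, limma adjusted p = 0.00368), lost with limma-voom (adjusted p = 0.103). In DKO_EP the endstage values of 8.04, 8.27 and 3.82 overlapped the 12-week values, and the log2 fold change of 2.68 did not pass (SE 2.15, 95% interval -1.68 to 7.03, limma adjusted p = 0.323).

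Nefm rose only by the test in DKO_EE, from 1.03, 1.64, 7.87 and 4.71 to a lowest value of 3.95, a median of 9.31 and a highest of 10.04. The log2 fold change was 4.12 (SE 1.5, limma adjusted p = 0.0207), lost without 12-week DKO_EE animal 1 (0.11) or 2 (0.0913) and with limma-voom (0.0625). It was 1.91 in DKO (SE 1.87, adjusted p = 0.449) and 0.97 in DKO_EP (SE 1.87, adjusted p = 0.701). Nefh rose in DKO_EE by 3.80 (SE 1.04, limma adjusted p = 0.00263), from the 12-week values above to a lowest value of 8.40, a median of 10.07 and a highest of 11.38, with overlap through 12-week animal 4. Its log2 fold change was 2.35 in DKO (SE 1.30, adjusted p = 0.158), which passed with array weights (0.0314). In DKO_EP it was 1.52 (SE 1.30, adjusted p = 0.358), and 3.40 without 12-week animal 2 (adjusted p = 0.0148).

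Prph did not pass the test in any genotype. Its log2 fold change was -1.59 in DKO (SE 1.19, limma adjusted p = 0.31), -0.46 in DKO_EE (SE 0.96, adjusted p = 0.72) and 0.36 in DKO_EP (SE 1.19, adjusted p = 0.833). With only the libraries in which Ttn took under 1% of the reads, the DKO value was -3.42 and passed (adjusted p = 0.0492). At intact endstage it stood at 4.65, 4.13 and 5.49 in DKO, at 3.38, 5.20 and 4.86 in DKO_EP, and at 3.45 to 6.12 with a median of 4.62 in DKO_EE. In all, 2 of 5 members passed in DKO, where 36.7% of 16772 genes passed, 4 of 5 in DKO_EE, where 50.6% passed, and 1 of 5 in DKO_EP, where 44.2% passed. All calls were increases, as were 18% of all genes in DKO, 23.6% in DKO_EE and 21.3% in DKO_EP. The difference in this change between DKO_EE and DKO passed for 0 of 5 members (0.125% of genes, 1757 genes and no member at an unadjusted p under 0.05). Between DKO_EP and DKO it passed for 0 of 5 (0.00596% of genes, 427 genes and no member unadjusted), and limma-voom also called 0 of 5 in both. A call in 1 genotype and not in another is therefore not shown to differ between them.

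**Figure D3:**
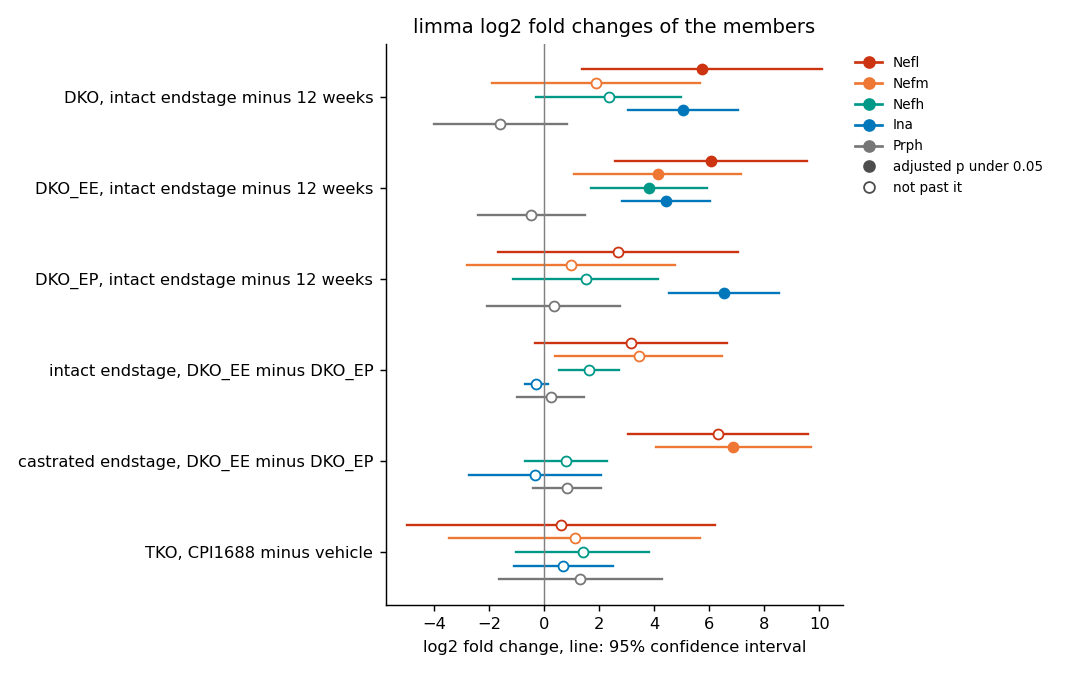
Log2 fold change by limma (horizontal axis) with its 95% confidence interval for each member in 6 comparisons; filled points have an adjusted p under 0.05. Ina is filled in all 3 progressions, and Nefm is the only filled gene between castrated DKO_EE and DKO_EP.

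Other genes of the axon and of neurofilament handling changed in both directions over the same step. Of all genes, 18% rose in DKO, 23.6% in DKO_EE and 21.3% in DKO_EP, and 36.7%, 50.6% and 44.2% passed in either direction. The counts of this and the following lists stand beside these shares and were not tested against them. Of 22 axonal cytoskeleton genes, 6 rose and 3 fell in DKO, 12 rose and 4 fell in DKO_EE, and 10 rose and 3 fell in DKO_EP, with median log2 fold changes of 0.58, 1.40 and 1.92 against -0.04, -0.07 and -0.06 over all genes. Crmp1, a collapsin response mediator, rose by 5.32, 4.20 and 5.40 (adjusted p = 0.000128, 8.6e-05 and 8e-05 by limma). Stmn2, an axonal microtubule regulator of neurons, fell instead, with log2 fold changes of -4.65 (adjusted p = 0.00161), -3.27 (0.00346) and -5.04 (0.00058). Map2, a dendritic microtubule-associated protein, rose by 2.66, 2.77 and 3.30.

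Of 22 linkers, motors, kinases and turnover factors of neurofilaments, 6 rose and 4 fell in DKO, and 8 rose and 6 fell in both DKO_EE and DKO_EP. Their median log2 fold changes were -0.19, 0.22 and 0.13. Cdk5r1, an activator of the kinase Cdk5 that phosphorylates neurofilament tails, rose by 2.67, 3.21 and 2.88 (limma adjusted p = 0.000157, 2.1e-07 and 4.9e-05). Myo5a, a motor that binds neurofilaments, rose by 1.83, 1.32 and 1.95. Trim2, a ubiquitin ligase of the light chain, fell by 2.05 in DKO (adjusted p = 0.000114), by 1.68 in DKO_EE (4.7e-05) and by 1.53 in DKO_EP (0.00212), and the linker gene Plec fell by 2.45, 1.61 and 2.13.

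The other intermediate filament genes included both falls and rises. Of 13 such genes, 4 rose and 4 fell in DKO, 2 rose and 4 fell in DKO_EE, and 5 rose and 4 fell in DKO_EP, with medians of -0.17, -0.10 and -0.09. Desmin (Des), the filament of muscle, fell by 3.81, 2.25 and 4.92, and synemin (Synm) by 4.34, 3.33 and 4.94, while the lamin gene Lmnb1 rose by 1.60, 1.26 and 1.42. The muscle markers fell as well, 4 of 4 in DKO, 1 of 4 in DKO_EE and 3 of 4 in DKO_EP, and their part in these values was not tested.

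Another list of 15 genes held Rest, its partners, Ezh2 and related genes, and Srrm4, which is not itself a repressor. Of these, 6 rose and 2 fell in DKO, 9 rose and 1 fell in DKO_EE, and 8 rose and 2 fell in DKO_EP. Their medians were 0.29, 0.41 and 0.46. Rest fell in all 3, by 2.79 (limma adjusted p = 0.00146), 2.99 (2.9e-05) and 3.62 (6.3e-05), and its corepressor gene Rcor2 rose by 2.70, 2.27 and 2.99. Rest stood at 9.40 ± 0.11 (SD, n = 4) in 12-week DKO and 6.60 ± 0.61 (SD, n = 3) in intact endstage DKO. Of 24 neuroendocrine genes 18, 21 and 21 rose and none fell, with medians of 4.67, 4.57 and 6.30, and Chga rose by 6.76, 5.55 and 7.90. Schwann cell markers fell for 8, 5 and 5 of 13 genes and none rose, with medians of -1.95, -1.26 and -1.55. Peripheral neuron markers rose for 4 and fell for 11 of 21 in DKO, rose for 4 and fell for 5 in DKO_EE, and rose for 4 and fell for 6 in DKO_EP, with medians of -2.48, -1.26 and -1.10.

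Among intact endstage tumours no member passed the test between genotypes. Nefl stood at 12.34, 9.52 and 12.35 in DKO, at 8.04, 8.27 and 3.82 in DKO_EP, and from 4.63 to 12.36 with a median of 11.54 in DKO_EE. The DKO_EP animals all lay below the DKO animals, with a log2 fold change of -4.69 (SE 1.97, 95% interval -8.90 to -0.49, limma adjusted p = 0.845), and Nefm gave -3.14 (SE 1.71, adjusted p = 0.889). With 3 animals in each group a full separation is easily reached, and its share over all genes was not counted. Here 0 of 5 members and 0% of 16640 genes passed, with 965 genes and 1 member at an unadjusted p under 0.05, and limma-voom also called 0 of 5. Every DKO_EP library in this setting had a Lars2 share above 10%, and no DKO library did, so the share and the genotype cannot be told apart.

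Nefh leaned towards DKO_EE. It stood at 8.45, 8.94 and 7.0 in DKO, at 9.10, 8.12 and 8.14 in DKO_EP, and from 8.40 to 11.38 with a median of 10.07 in DKO_EE. The log2 fold change of DKO_EE was 1.96 over DKO (SE 0.51, limma adjusted p = 0.0717) and 1.64 over DKO_EP (SE 0.51, adjusted p = 0.121). Neither passed, and both did without DKO_EE animal 4 (adjusted p = 0.017 and 0.0315), which is the shallowest library and has the highest Lars2 share, and with samples weighted by limma's array weights (0.0142 and 0.00949). Between DKO_EE and DKO, 0 of 5 members passed where 1.66% of genes did (1 member at an unadjusted p under 0.05), and Nefl gave -1.55 (SE 1.63, adjusted p = 0.679). Between DKO_EE and DKO_EP, 0 of 5 passed where 1.63% of genes did (2 members unadjusted), and limma-voom called 0 of 5 in both comparisons, with Nefl at 3.15 (SE 1.63, adjusted p = 0.388) and Nefm at 3.44 (SE 1.42, adjusted p = 0.257). Ina spanned 7.50 to 8.65 over all 3 genotypes.

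Within 1 animal, pieces of tumour differed widely in Nefl and Nefm in 3 of 6 animals. The pieces carry the labels AP, DP and LP. In DKO_EE animal 8, Nefl stood at 11.04 in the DP-LP piece and at 2.15 in the AP piece, from 2288 and 2 reads, and Nefm at 7.89 and 0. In DKO_EE animal 6, Nefl stood at 9.60 in DP and 14.10 in AP, the highest of the 12 pieces. In DKO_EP animal 2 it stood at 5.70 in DP and 10.84 in AP. DKO_EE animal 5 had 12.09 and 12.15 in DP and AP, DKO_EE animal 7 had 11.63 and 12.91 in DP and LP, and DKO_EP animal 1 had 8.30 and 7.77 in AP and LP-DP. AP was thus the higher piece in animals 5 and 6 of DKO_EE and in both DKO_EP animals, and the lower piece in DKO_EE animal 8.

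Over these 6 animals the median absolute difference between pieces was 2.89 for Nefl, 2.41 for Nefm, 0.34 for Nefh, 0.30 for Ina and 0.81 for Prph, beside 0.31 over all genes. The widest difference was 8.89 for Nefl and 7.89 for Nefm, and 99.9% and 99.8% of genes had a smaller widest difference. In DKO_EE animal 8 the Chga values were 12.40 and 11.49, while Nefl differed by 8.89. Its AP piece had a Lars2 share of 19.0% and its DP-LP piece 0.0085%. In DKO_EE animal 6 the low piece had the high share, 18.7% against 0.534%, and in DKO_EP animal 2 both pieces had high shares, 19.4% in the low and 17.5% in the high piece. The part of this share in Nefl was not tested.

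**Figure D4:**
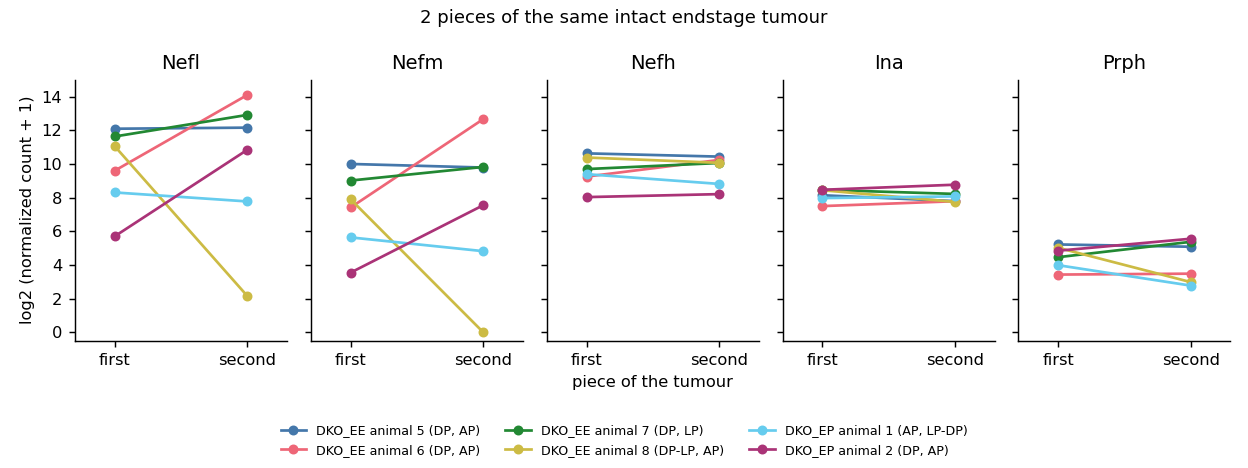
Log2 of the normalized count plus 1 (vertical axis) in 2 pieces of the same intact endstage tumour, with 1 line per animal and 1 panel per gene. Lines for Nefl and Nefm are steep in 3 of the 6 animals, while those for Nefh and Ina are nearly flat.

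Castrated DKO_EE tumours had high Nefl and Nefm in every animal, and castrated DKO_EP tumours in 1 of 5. Nefl stood at 12.96, 13.34, 12.58, 12.45 and 12.66 in DKO_EE and at 4.14, 2.56, 5.34, 7.29 and 13.02 in DKO_EP. Nefm stood at 10.46, 11.38, 10.81, 10.05 and 9.13 in DKO_EE and at 0, 3.59, 1.73, 2.75 and 9.43 in DKO_EP. DKO_EP animal 5, sampled at 37 weeks, lay within the DKO_EE range for both genes, and the other 4 DKO_EP animals lay below it. Its Nefh of 7.70 was the lowest of the 5 DKO_EP animals, so the high light chain did not come with a high heavy chain.

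The log2 fold change of DKO_EE over DKO_EP was 6.87 for Nefm (SE 1.31, 95% interval 4.05 to 9.68, limma adjusted p = 0.0169) and 6.33 for Nefl (SE 1.52, 95% interval 3.06 to 9.60, adjusted p = 0.056), so Nefm passed and Nefl lay just outside the threshold. Nefl passed in 6 of 9 alternatives other than leaving out single animals of these groups, among them limma-voom on the recovered reads (adjusted p = 0.0156). Of those 6, the fit of only the compared groups and the fit without the 99-week DKO animal were chosen after seeing the data. In all 1 of 5 members passed, where 1.7% of 16558 genes did and 0.707% were higher. The DKO_EE values also belong to the contrast with castrated DKO behind the choice of genes, so this is not independent of that choice. Castrated DKO was also in this fit, so the values that chose the genes entered its pooled spread. Without DKO_EP animal 5 Nefl passed too (log2 fold change 7.97, adjusted p = 0.00127), and without DKO_EP animal 3 Nefm did not (adjusted p = 0.0531). With the 99-week DKO animal left out of the fit, Nefl passed at an adjusted p of 0.0298, an alternative chosen after seeing the data.

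Nefh, Ina and Prph did not pass between these genotypes. Nefh was 9.14, 10.20, 9.36, 9.23 and 9.79 in DKO_EE and 9.23, 8.78, 9.21, 8.80 and 7.70 in DKO_EP, a log2 fold change of 0.80 (SE 0.69, 95% interval -0.69 to 2.29, limma adjusted p = 0.778). Ina gave -0.32 (SE 1.12, 95% interval -2.72 to 2.09, adjusted p = 0.979) and Prph 0.83 (SE 0.58, 95% interval -0.41 to 2.07, adjusted p = 0.68). Castrated DKO was in this fit, with an SD of 3.70 for Ina and 2.12 for Nefh. The SDs in DKO_EE and DKO_EP were 0.16 and 0.41 for Ina and 0.44 and 0.62 for Nefh. The SEs and intervals therefore also hold the spread of castrated DKO. Of the other lists, Dpysl3 was lower in DKO_EE by -1.68 (adjusted p = 0.0147) as the only one of 22 axonal cytoskeleton genes past the test, Dst, a linker of intermediate filaments, by -1.46 (adjusted p = 0.00899) among 22 linkers, motors and kinases, and the sensory neuron factor Pou4f1 by -6.00 (adjusted p = 0.046) among 20 peripheral neuron markers. None of 24 neuroendocrine genes and none of the 15 genes listed with Rest and Ezh2 passed.

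**Figure D5:**
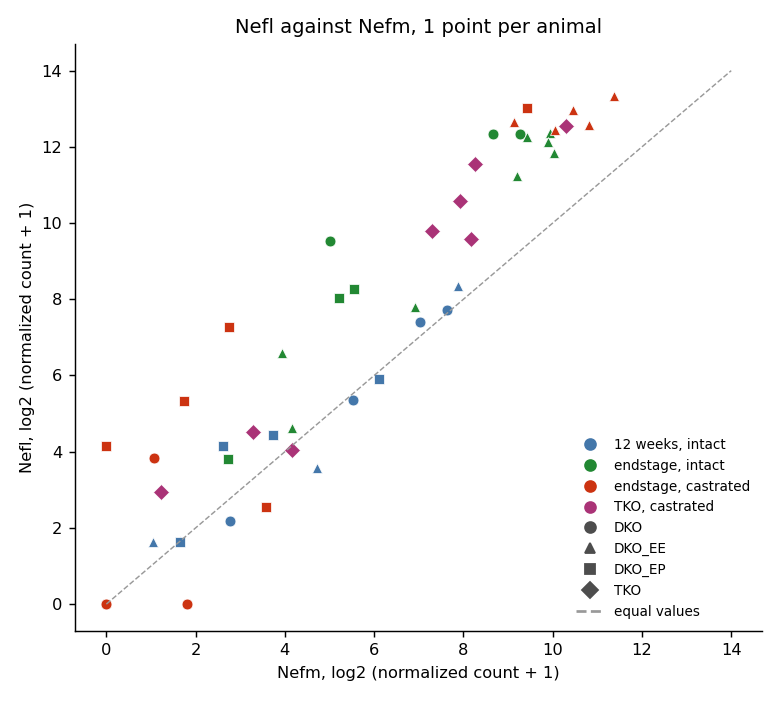
Nefl (vertical axis) against Nefm (horizontal axis), both as log2 of the normalized count plus 1, with 1 point per animal, colour for setting and shape for genotype; the dashed line marks equal values. The 12-week animals lie near the line, and most endstage and TKO animals lie above it.

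The difference between the light and medium chains was larger in the intact endstage groups than at 12 weeks. The difference of Nefl and Nefm log2 values, which is not per length, averaged -0.08 ± 0.41 for 12-week DKO, -0.01 ± 0.79 for DKO_EE and 0.51 ± 0.78 for DKO_EP of that age (SD, n = 4 each). In intact endstage DKO the difference averaged 3.76 ± 0.72 (SD, n = 3). The 8 intact endstage DKO_EE animals averaged 1.92 ± 0.84 (SD), and the 3 DKO_EP animals 2.21 ± 0.97 (SD). It was 2.43 ± 0.69 in castrated DKO_EE and 2.97 ± 2.27 in castrated DKO_EP (SD, n = 5 each), and 0.24 ± 1.89 in castrated DKO (SD, n = 4), where both genes were at or near 0. The 1 added before the logarithm draws the difference towards 0 at low counts, and the shared exon bases can put reads of either gene into the other.

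Between castrated and intact endstage tumours no member passed the test within DKO_EE or DKO_EP. In DKO_EE the 5 castrated Nefl values, 12.45 to 13.34, all lay above the 8 intact values, 4.63 to 12.36. The log2 fold change was 2.94 (SE 1.61, 95% interval -0.31 to 6.19, limma adjusted p = 0.248), and Nefm gave 2.43 (SE 1.39, adjusted p = 0.279). Among single pieces, 14.10 in intact animal 6 and 12.91 in intact animal 7 were not below the castrated range, so the separation holds for the animals' averages only. Ina also lay higher in the castrated animals without overlap, at 8.92 to 9.33 against 7.64 to 8.46. Here 0 of 5 members passed, where 16.5% of genes did, and none at an unadjusted p under 0.05. The tests between castrated and intact tumours pooled the spread over all 11 groups. For Ina that took in castrated DKO (SD 3.70), beside SDs of 0.16 and 0.27 in castrated and intact DKO_EE. The lack of a call for Ina therefore does not show that castrated and intact DKO_EE are alike. In DKO_EP 0 of 5 passed, where 9.87% of genes did, again with none at an unadjusted p under 0.05. Nefl was 8.04, 8.27 and 3.82 in the intact DKO_EP animals, inside the range of the castrated ones, while Ina was again higher in the castrated animals without overlap, at 8.79 to 9.91 against 8.02 to 8.65. The difference between DKO_EE and DKO_EP in the response to castration was 3.18 for Nefl (SE 2.61, adjusted p = 1) and 3.43 for Nefm (SE 2.27, adjusted p = 1), and 0 of 5 passed, where 0.00596% of genes did. Limma-voom also called 0 of 5 in these 3 comparisons. The share of all genes that lie without overlap between castrated and intact animals was not counted.

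In castrated TKO mice Nefl ranged widely in both arms. It stood at 2.95, 4.52, 12.54 and 11.55 with vehicle and at 10.59, 9.80, 4.06 and 9.57 with CPI1688. The arms overlapped, and each held low and high animals. The log2 fold change of CPI1688 over vehicle was 0.62 (SE 2.44, 95% interval -4.99 to 6.22, limma adjusted p = 1), and it turned negative without vehicle animal 1 or 2 or CPI1688 animal 1. Nefh stood at 3.71, 7.35, 9.18 and 8.46 with vehicle and at 9.04, 8.52, 8.20 and 8.54 with CPI1688, a log2 fold change of 1.40 (SE 1.06, adjusted p = 1), and 0.25 without vehicle animal 1. In all 0 of 5 members and 0% of 16512 genes passed, with 337 genes and no member at an unadjusted p under 0.05, and limma-voom also called 0 of 5.

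Single TKO animals stood apart in 1 or more members. CPI1688 animal 4 had Prph at 8.62, with 315 reads, while the other 3 had 4.02, 3.97 and 3.94. Its Elavl4 was 11.04 and its Chga 9.15, and its Krt8 of 9.58 and Epcam of 8.91 were the lowest of the 8 TKO animals. CPI1688 animal 3 had Nefl at 4.06 and Nefm at 4.16 with Ina at 8.60 and Nefh at 8.20. Vehicle animal 1, in which neuroendocrine genes were low, was the lowest of the 8 for all 5 members, with Nefl at 2.95, Nefm at 1.23, Nefh at 3.71, Ina at 5.91 and Prph at 1.23. Vehicle animal 2 had Nefl at 4.52 with Ina at 8.99 and Chga at 10.01, so a low light chain also occurred with alpha-internexin and Chga high.

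Over all 48 animals the pattern nearest to that of Nefl was Nefm (r = 0.94, rho = 0.93, and r = 0.91 on deviations from the group means). After the 5 members themselves, the 3 genes nearest to Nefl among 12177 compared were Slc38a11 (r = 0.80), Orc5 (0.76) and Pde8b (0.75), and those nearest to Nefm were Slc38a11 (0.75), Sfrp5 (0.75) and Sgip1 (0.73). Slc38a11, of an amino acid transporter family, stood at 1.56 ± 1.20 in castrated DKO (SD, n = 4), 8.80 ± 0.85 in castrated DKO_EE and 6.38 ± 0.81 in castrated DKO_EP (SD, n = 5 each). Nefh was nearest to Unc79 (0.83), Kcnd2 (0.83) and Rgs9 (0.82), and Ina to Dclk2, Prox1 and Srrm3 (0.97 each). Prph was nearest to Mturn (0.77), Phf24 (0.70) and Abca8b (0.68). For the nearest gene, Spearman's rho was 0.77 for Nefl, 0.75 for Nefm, 0.58 for Nefh, 0.93 for Ina and 0.64 for Prph. The members were not close to each other beyond the light and medium chains: Nefl gave an r of 0.56 with Nefh, 0.44 with Ina and 0.25 with Prph. All these values share the libraries and the step from 12 weeks to endstage, and they are descriptions. The exon bases that Nefl and Nefm share can put reads of either into the other and so raise their r. Castrated DKO, on which the genes were chosen, is among the 48 animals.

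The levels of the 10 genes beside Nefl and Nefm on chromosome 14 are described for castrated and intact endstage DKO, with no test. Towards lower coordinates, Kctd9 stood at 8.43 ± 0.05 in castrated DKO (SD, n = 4) and at 8.49 ± 0.42 in intact endstage DKO (SD, n = 3), and Dock5 at 9.89 ± 0.68 and 9.45 ± 0.13. Cdca2, a mitotic gene, stood at 8.67 ± 1.16 and 9.42 ± 0.13. Towards higher coordinates, Stc1, which encodes the hormone stanniocalcin, stood at 5.95 ± 0.72 and 5.28 ± 0.74. Adam7 was at 0 in all endstage DKO animals. Adamdec1, Adam28, Ebf2, Gnrh1 and Nkx2-6 were the other neighbours. Their castrated DKO means were 5.25, 4.67, 3.88, 1.31 and 0, and their intact endstage DKO means 3.12, 3.35, 5.19, 2.83 and 0.31.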

How the data were processed

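Libraries were made, per the labels, from total RNA (miRNeasy kit) after ribosomal RNA depletion with RiboErase (HyperPrep chemistry). FastQC, STAR, RSEM, limma, DESeq2, GRCm38 and mm10 are named in the submitters' processing notes, which give neither versions nor the role of each. The deposited table gives log2 values, log2 of a normalized count plus 1, for 16772 genes, as the authors made it. With the logarithm and the 1 removed, 100% of values were whole multiples of a step per library within 0.05 of a read, so reads were recovered. A share of 8.92% of values was at 0, and low counts limit the precision of low genes. Of 56 columns, 2 matched no sample and were not used. Levels per kb are normalized counts over the exon length in GENCODE M21, which held 99.9% of the symbols.

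Animals were grouped by genotype, treatment and age. The log2 values as deposited were compared between groups by limma 3.58.1 (R 4.3.3, trended eBayes), and a call is a p under 0.05 after Benjamini-Hochberg adjustment across every gene with spread. Genotypes were compared with the groups of 1 setting in the fit, and settings with all 11 groups in it. Each fit pooled the spread of all its groups, and castrated DKO was in the castrated endstage fit and in the fit of all groups. Contrasts with castrated DKO, pieces of an animal and correlations are descriptions. Overlap between groups was recorded for the members and not for all genes. The fits were tested on simulated data. Tables and figures were made with matplotlib 3.10.9, numpy 2.4.6 and pandas 2.3.3 under Python 3.11.15.

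The members and the gene lists were chosen with earlier results of these data known. Genes named beside the members were the 3 with the highest Pearson r to each member (leaving out gene models and the lowest 25% by mean), the 5 table genes on each side of Nefl and Nefm, and up to 5 members of each list with the smallest adjusted p per comparison. Genes named as marker levels of single animals or for correlations were chosen after their values were seen, and some marker genes are not reported here. Alternatives changed the filter on low genes, the offset (8), normalization, sample weights, groups, covariates, pieces and libraries, used limma-voom on recovered reads, and left out each animal in turn.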

Additional observations from a re-analysis of the deposited data

Results flagged for a closer look

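Of 45 combinations of a member and a group of 4 to 10 animals, 6 held an animal whose gap to the nearest of the others exceeded the 95% critical value of Dixon's test. Chance flags about 1 in 20 groups. In castrated DKO, animal 4 had Nefl at 3.84 while the others were at 0. This is given as a description only: these values chose the genes, and with the other animals at 0 any value above 0 would exceed the critical value. Also in castrated DKO, the 99-week animal 2 had Ina at 2.36 while the others ranged from 9.54 to 9.90. In TKO mice given CPI1688, animal 3 had Nefl at 4.06 below a range of 9.57 to 10.59, and animal 4 had Prph at 8.62 above a range of 3.94 to 4.02. In TKO mice given vehicle, animal 1 had Ina at 5.91 below a range of 8.99 to 9.60, and Prph at 1.23 below a range of 4.33 to 4.93.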

How the results depend on the processing

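The fits were repeated under 933 combinations of a result and an alternative. Apart from leaving out single animals, 109 counts of called members stayed within 1.5 times and 12 moved, and 267 member values kept direction and side of the threshold, 12 newly passed it, 4 no longer passed and 3 reversed. Between castrated DKO_EE and DKO_EP the count of 1 became 2 with limma-voom, an offset of 8, array weights, all 11 groups in the fit and, chosen after seeing the data, only the compared groups or no 99-week animal. It ranged from 0 to 2 with single animals left out. From 12 weeks to intact endstage the count of 2 in DKO became 1 with limma-voom and 3 with array weights (range 1 to 2 with animals left out), the count of 4 in DKO_EE became 2 with limma-voom (3 to 4), and the count of 1 in DKO_EP became 2 with Ttn under 1% (1 to 2). At intact endstage the count of 0 became 1 with array weights for DKO_EE against DKO and against DKO_EP, and with identifier letters as a covariate for the first (0 to 1 for both). Directions reversed with array weights for Nefl in TKO (-0.99) and Prph in DKO_EP progression (-0.25), and with age as a covariate for Ina between castrated DKO_EE and DKO_EP (0.37). With animals left out, Nefl in TKO ranged from -1.03 to 2.17, Prph in DKO_EP progression from -0.47 to 1.07, and Prph in DKO_EE progression from -1.30 to 0.94. The cause was not tested. No paired analysis was possible because the labels give the groups no shared replicate numbers. With only libraries of Lars2 under 10%, no intact DKO_EP animal was left, so comparisons with that group were not run. Depth limits the low values: 12 reads or fewer stand behind Nefl in every castrated DKO animal.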
